A study of Homo sapiens with 26 samples.

Results

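HCT116 cells, a human colorectal carcinoma line, that carried the Y396E form of IGF2BP1 were compared with cells that carried the wild-type protein (WT), both after 2 h in 500 µM sodium arsenite. The comparison used 6 of the 26 RNA-seq samples of the series, the 3 Y396E arsenite libraries and the 3 WT arsenite libraries, chosen by genotype and treatment alone. All cells of both groups carried Tet-OsTIR1-PURO and knockouts of IGF2BP2 and IGF2BP3, and received mCherry-IGF2BP1 by lentiviral transduction. Y396E replaces a tyrosine of the second disordered linker by glutamate as a mimic of phosphorylation. The edited parent was a single-cell clone, and each transduced line was a population sorted in a narrow mCherry gate, so 1 population stands for each genotype and line and genotype cannot be told apart. The 3 libraries of a group came from dishes plated independently, and p-values measure the spread between such dishes. Y396E and WT cells in PBS (control), S181E cells in arsenite (the same background with a phosphomimetic change of a serine in linker 1) and RQ cells (arginines of linker 1 changed to glutamine) in both treatments were used beside them, again with 3 libraries each. A single library of parental HCT116 cells in arsenite, which the paper calls nonengineered, was used for IGF2BP1 and its paralogs only.

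IGF2BP1 is an RNA-binding protein with RRM and KH domains joined by disordered linkers, and it takes part in the stability, transport and translation of its target mRNAs. The second linker lies between pairs of KH domains. Arsenite is an oxidative and proteotoxic stress: it halts most translation initiation through phosphorylation of eIF2α, drives mRNPs into stress granules, and induces heat shock, NRF2, metallothionein and immediate-early genes.

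Library totals in the 6 samples ran from 26032473 to 50834401 counts. Y396E arsenite replicate 3 stood apart: 13897 genes had a count in it, against 20850 to 23473 in each of the other 23 libraries with mCherry-IGF2BP1, at a total of 37961265 counts. The SD of its log2 values from the rest of its group was 0.346, against 0.071 to 0.186 elsewhere. The share of counts on the mitochondrial genome was 9.38%, 10.1% and 7.55% in the Y396E libraries and 12.2%, 12.3% and 10.8% in the WT libraries. Epithelial markers were high in both groups, with a summed level of 4313 to 4415 CPM (counts per scaled library size) in WT and 4939 to 5477 CPM in Y396E; of the 9 markers, CDX1, VIL1 and KRT20 did not pass 1 CPM in all 6 libraries. Immune and endothelial markers were at or near 0, with at most 0.701 CPM for any of them, and COL1A1 was the single fibroblast marker above 1 CPM in all 6, at 6.46 to 11.1 CPM, with COL1A2 and LUM at 0.

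IGF2BP1, the gene on the transgene (chromosome 17, 48997385 to 49056145 in hg38), was examined first. Both groups carry the transgene, so its level cannot check which libraries are Y396E. IGF2BP1 had 29.3, 27.5 and 29.6 CPM in the WT libraries and 44.1, 41.8 and 42.2 CPM in the Y396E libraries. The mean was 42.7 CPM in Y396E and also in S181E cells in arsenite. All 3 Y396E libraries lay above WT, by 0.57 ± 0.09 on the log2 scale (SE, adjusted p = 4.11e-05, edgeR quasi-likelihood test with Benjamini-Hochberg adjustment, as for every adjusted p here). The single library of parental cells in arsenite, nonengineered HCT116, had 0.674 CPM, from 23 counts. Reads of the knocked-out paralogs were still present, at 69.3 to 73.3 CPM of IGF2BP2 and 107 to 113 CPM of IGF2BP3 in WT. The parental library had 157.6 CPM of IGF2BP2 and 115.1 CPM of IGF2BP3. These gene counts do not check the edits. IGF2BP3 differed by 0.20 ± 0.05 and IGF2BP2 by −0.14 ± 0.06, neither past the thresholds. Whether the higher transgene level plays a part in any difference below was not tested.

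Genes counted as called passed both an adjusted p under 0.05 and a 1.2-fold difference. Of 9099 tested protein-coding genes, 1972 (21.7%) were called between Y396E and WT after arsenite, 889 higher (9.77%) and 1083 lower (11.9%). In 4054 genes (44.6%) the 3 libraries of one group did not overlap those of the other. Genes of chromosome 8 from HGSNAT to the chromosome end were treated apart: 187 of these 207 were called (90.3%), and 1785 of the 8892 others (20.1%), 888 higher and 897 lower. Without Y396E replicate 3, 1668 genes were called (18.3%). Outside the chromosome 8 stretch the calls without it were 776 higher and 698 lower. Calls made both with and without that library numbered 1282, which is 65.0% of the calls with it and 76.9% of those without it, and no gene called with it was called in the opposite direction without it. The 690 calls lost had a median size of 0.32 on the log2 scale, against 0.44 in those kept. Among the 3033 genes of lowest level 58.5% of calls were kept, and among the 3033 of highest level 76.6%. In the former, replicate 3 deviated from the mean of replicates 1 and 2 with an SD of 0.462, against 0.11 between replicates 1 and 2. Its part in the calls of low genes beyond these values was not tested.

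Outside the stretch, the largest rises were in a few genes that WT cells barely expressed, and in secreted signals and keratins. ZBED2, a zinc-finger transcription factor (chromosome 3, 111592900 to 111595346), had 2.65, 2.97 and 2.72 CPM in WT and 23.4, 19.3 and 16.6 CPM in Y396E, a 7.05-fold higher mean. VSNL1, a neuronal calcium sensor, had 2.03 to 2.72 CPM in WT and 13.5 to 14.9 CPM in Y396E. SYTL2, a vesicle-tethering effector of Rab27, had 14.0 to 14.9 CPM and 64.8 to 72.0 CPM. None of these 3 genes had overlapping groups, and their log2 fold changes were 2.82 ± 0.14, 2.59 ± 0.12 and 2.26 ± 0.07 (adjusted p of 9.41e-14, 1.75e-14 and 4.42e-17). Their log2 fold changes in control cells were between 2.52 and 2.7.

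DKK1, a secreted Wnt antagonist (chromosome 10, 52314281 to 52317657), had 51.6, 51.7 and 54.8 CPM in WT and 216.6, 225.3 and 236.0 CPM in Y396E. The rise was 4.29-fold, or 2.10 ± 0.09 on the log2 scale (adjusted p = 5.42e-15). In control cells DKK1 was far more abundant in both lines, 767.3 to 1055.5 CPM in WT and 1334.0 to 1445.8 CPM in Y396E, and the log2 difference was 0.63. The Y396E cells thus held more of it in both treatments, and the excess on the log2 scale was larger after arsenite by 1.47 (adjusted p = 3.93e-08). BMP4, a ligand of the TGF-β family, had 62.9, 62.9 and 63.8 CPM in WT and 154.3, 157.2 and 160.1 CPM in Y396E (1.31 ± 0.07, adjusted p = 3.92e-13). The intermediate filament keratins KRT7 and KRT80 rose by 1.84 ± 0.12 and 1.52 ± 0.11, KRT7 from 5.03 to 5.8 CPM in WT to 17.8 to 19.8 CPM in Y396E. PDLIM2, a PDZ and LIM domain protein of the cytoskeleton, rose by 1.22 ± 0.08.

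In the remaining 4 of the 12 largest rises, Y396E replicate 3 lay well away from the other 2 Y396E libraries. The Wnt receptor gene FZD1 had 6.31 to 6.56 CPM in WT and 9.92, 11.3 and 23.9 CPM in Y396E, with the last value from replicate 3. SECTM1 and RINL had the same form, 20.0, 18.7 and 34.3 CPM and 17.4, 16.9 and 35.1 CPM in Y396E. Without replicate 3 the log2 rises of FZD1, SECTM1 and RINL dropped from 1.22, 1.21 and 1.21 to 0.74, 0.89 and 0.78, and all 3 were still called. TUBA4A, an alpha-tubulin, went the other way: 83.3, 81.0 and 51.9 CPM in Y396E against 30.6 to 31.5 CPM in WT, with a rise of 1.22 that became 1.42 without replicate 3.

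**Figure D1:**
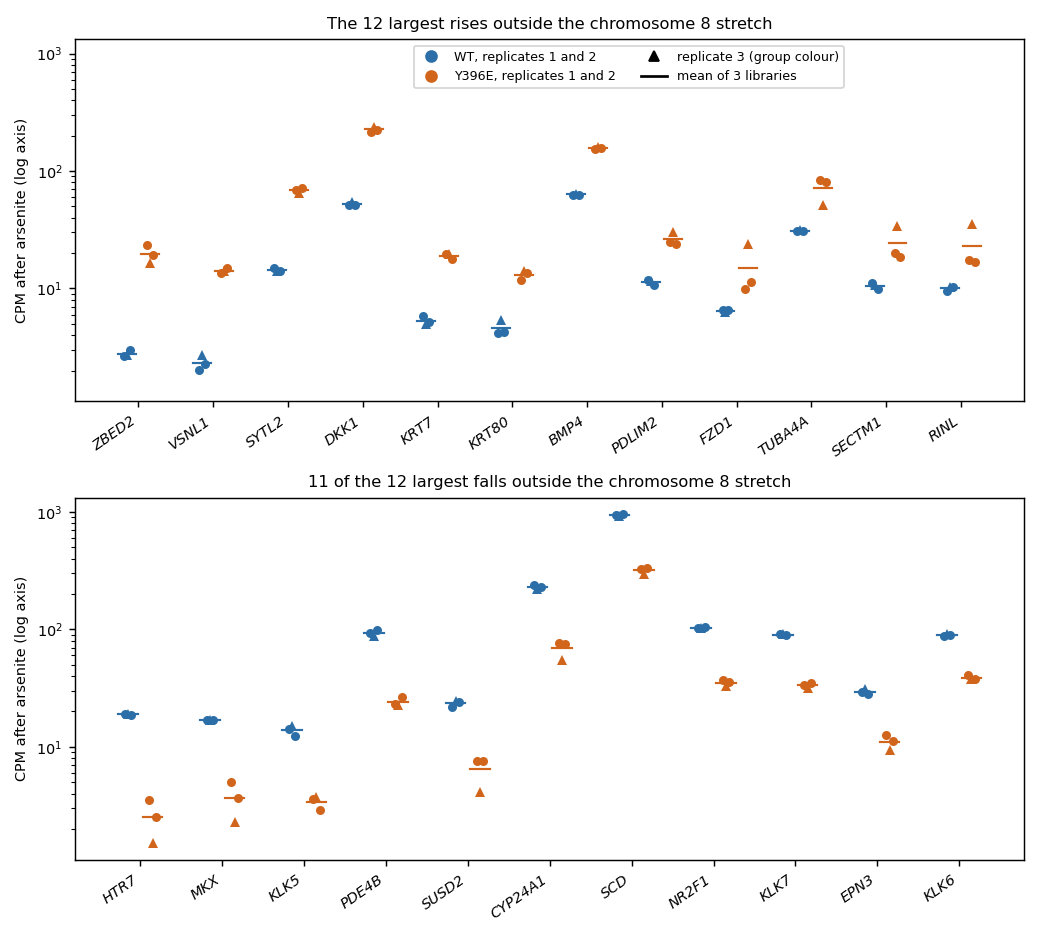
CPM after arsenite (log axis) of the 12 largest rises and 11 of the 12 largest falls outside the chromosome 8 stretch, 1 point per library, with triangles for replicate 3 and a line at the mean of 3. WT and Y396E points do not overlap for any of the 23 genes, which the rule for choosing them required; for FZD1, SECTM1 and RINL the Y396E triangle lies well above the circles.

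The largest falls took in a receptor, developmental transcription factors, kallikreins and lipid and vitamin D enzymes. HTR7, a serotonin receptor (chromosome 10, 90740823 to 90858039), had 19.0, 18.8 and 18.9 CPM in WT and 3.53, 2.50 and 1.51 CPM in Y396E, a 7.67-fold lower mean (log2 change −2.94 ± 0.17, adjusted p = 9.04e-13). MKX, the homeobox gene Mohawk, had 16.9 to 17.0 CPM in WT and 5.01, 3.67 and 2.31 CPM in Y396E (−2.23 ± 0.17). Both genes were lowest in Y396E replicate 3, and without it their changes were −2.68 and −1.99. The transcription factor gene NR2F1 fell by 1.55. It had 101.8 to 105.1 CPM in WT and 32.7 to 37.1 CPM in Y396E.

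Both enzymes that degrade signals and enzymes that make lipids were among them. PDE4B, which hydrolyses cAMP, had 93.0, 98.1 and 88.3 CPM in WT and 23.2, 26.6 and 22.9 CPM in Y396E (−1.94 ± 0.07, adjusted p = 6.82e-16). CYP24A1, the hydroxylase that inactivates vitamin D, had 221.6 to 237.8 CPM and 76.4, 75.5 and 54.4 CPM (−1.74 ± 0.08). SCD, the desaturase that makes oleate (chromosome 10, 100347233 to 100364826), was the most abundant of the 12, at 946.9, 957.3 and 924.3 CPM in WT and 326.5, 335.5 and 296.6 CPM in Y396E. That is a 2.95-fold lower mean (−1.56 ± 0.06, adjusted p = 7.11e-16). SUSD2 and EPN3 were also among the 12, at −1.86 and −1.41. In control cells PDE4B and CYP24A1 were also lower, by 1.38 and 1.13 on the log2 scale, which is less than after arsenite (difference −0.56, adjusted p = 0.000665, and −0.61, adjusted p = 0.000664).

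Kallikreins are secreted serine proteases encoded in 1 cluster on chromosome 19. All 5 tested members of the 15 listed were called lower, with a median of −1.21 against −0.001 over all tested genes. KLK5 had 14.2, 12.3 and 15.0 CPM in WT and 3.57, 2.89 and 3.75 CPM in Y396E (−2.04 ± 0.13). KLK7 had 88.8 to 90.7 CPM and 31.5 to 34.8 CPM (−1.43 ± 0.06), and KLK6 and KLK10 fell by 1.21 and 1.10. The fifth member, KLK8, fell by 0.72. The fall was present in control cells too, with a median of −1.55.

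Further lists of genes described known pathways, and each is given by the number of tested members called and by its median log2 fold change, beside the 9.77% higher and 11.9% lower over all genes. The sterol list holds the enzymes of cholesterol synthesis and other targets of SREBP2, the transcription factor that is cleaved when membranes lack sterol. Of its 25 tested members 17 were called lower and 0 higher (median −0.45), and 16 were lower without Y396E replicate 3. SQLE, squalene epoxidase, had 60.5, 57.4 and 59.6 CPM in WT and 22.7, 23.4 and 18.3 CPM in Y396E (−1.46 ± 0.10), but it lies in the chromosome 8 stretch. SREBF2, which encodes SREBP2 itself (chromosome 22, 41833105 to 41907305), had 229.6, 229.4 and 226.4 CPM in WT and 121.1, 121.3 and 107.5 CPM in Y396E (−0.97 ± 0.05, adjusted p = 4.42e-13). INSIG1, which retains the SREBP complex in the ER, and STARD4, a sterol carrier, fell by 0.92 and 0.82. HMGCS1, an enzyme of the first steps of the pathway, fell by 0.81. In control cells 16 of the 25 were called lower (median −0.43), beside 1289 of all 9099 tested genes. The difference between treatments was called for 5 of the 25, and for 1954 of all tested genes.

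Heat shock chaperones refold damaged proteins and are induced through HSF1. Of 24 tested members 7 were called lower and 0 higher (median −0.12). HSPA1B, an inducible HSP70, had 710.5, 695.1 and 713.8 CPM in WT and 374.4, 307.0 and 331.5 CPM in Y396E (−1.07 ± 0.07, adjusted p = 1.35e-11). Its copy HSPA1A, not tested here, is nearly identical in sequence, so the level is uncertain. HSPH1, an HSP110, had 546.2, 577.3 and 547.5 CPM in WT and 292.8, 271.6 and 250.7 CPM in Y396E (−1.04 ± 0.06). The HSP40 cochaperones DNAJB4 and DNAJB1 were also lower: DNAJB1 had 1634.3 to 1665.8 CPM and 882.7 to 942.6 CPM (−0.85 ± 0.05), and DNAJB4 had 68.5 to 71.9 CPM and 35.4 to 37.2 CPM (−0.96 ± 0.07). BAG3, DNAJA1 and HSF1 were the other called members, at −0.51, −0.39 and −0.54, and HSF1 lies in the stretch treated apart. The constitutive HSP90AB1 had 4729 to 4851 CPM and 4447 to 4539 CPM and was not called (−0.09 ± 0.08, adjusted p = 0.386).

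Promoter sequence is shown for 1 called gene of each of these lists, from RefSeq (GRCh38.p14, the assembly behind hg38), matched by symbol, because each holds the motif of the factor its list is named for. Both strands of the 250 bases before a gene start were searched, and genes may have several starts. The sterol regulatory element TCACNCCAC was found in 1 of the 18 sterol list members with a promoter, SREBF2, and in 310 of all 35116 promoters (0.883%). The heat shock element core GAANNTTC was found in 10 of 22 heat shock members, DNAJB1, DNAJA1, HSPA1B, HSPA8, HSP90AA1, HSP90AB1, HSPD1, HSPB1, DNAJB6 and CHORDC1, and in 2030 promoters (5.78%). These 10 include 3 of the called falls and 7 genes that were not called. Capitals mark the motif in chr22:41832922-41833030 (plus strand) and chr19:14518417-14518524 (minus strand).
SREBF2: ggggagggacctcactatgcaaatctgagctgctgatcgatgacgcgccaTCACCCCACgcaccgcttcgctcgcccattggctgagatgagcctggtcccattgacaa
DNAJB1: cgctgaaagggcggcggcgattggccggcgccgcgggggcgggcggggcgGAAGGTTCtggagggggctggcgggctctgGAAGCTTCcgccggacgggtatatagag
A match describes the letters in this window and was not tested as a site.

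Among the other stress lists, NRF2 targets, which defend against oxidants, had 11 of 28 members called higher and 3 lower (median 0.22), and 9 and 3 without replicate 3. FTL, the ferritin light chain, had 1385, 1379 and 1327 CPM in WT and 2304, 2236 and 2366 CPM in Y396E (0.76 ± 0.07, adjusted p = 1.75e-09). OSGIN1 rose by 0.71, and the export pump ABCC2 fell by 0.65. The ferritin heavy chain FTH1 did not follow FTL, with 2679 to 2702 CPM and 2275 to 2348 CPM (−0.21 ± 0.06, adjusted p = 0.00587), which is under the fold threshold. Metallothioneins and the zinc exporter SLC30A1 had 3 of 4 members called lower: MT1E, MT2A and SLC30A1 fell by 0.62, 0.35 and 0.39. Of 26 immediate-early genes, 10 were lower and 2 higher. EGR3 had 97.4 to 98.5 CPM in WT and 50, 47.5 and 64.3 CPM in Y396E (−0.86 ± 0.11), NR4A2 fell by 0.77, and KLF2 rose from 138.0 to 139.6 CPM to 238.8 to 255.4 CPM (0.83 ± 0.05). EGR1, at 2150 to 2473 CPM and 1835 to 2260 CPM, had overlapping groups and was not called. ATF4 targets, the amino acid arm of the stress response, had 3 of 37 called higher and 2 lower, with SESN2 at −0.68, the amino acid transporter SLC38A2 at −0.53 and the serine synthesis enzymes PHGDH and SHMT2 at 0.39 and 0.35. The ER chaperone list had 1 of 21 higher, SDF2L1, and 2 lower, XBP1 and EDEM1. XBP1 and EDEM1, at −0.29 and −0.31, were not called without replicate 3, when 1 other member was lower. SLC30A1 was not called without Y396E replicate 2 (−0.24).

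In growth factor signalling, 7 of 16 members of the EGF receptor and MAP kinase feedback list were lower and 1, DUSP4, was higher. The EGF receptor ligands AREG and EREG had 226.0 to 232.7 CPM and 486.3 to 498.6 CPM in WT, against 112.7 to 114.9 CPM and 242.3 to 295.0 CPM in Y396E, falls of 1.01 ± 0.08 and 0.90 ± 0.07. The feedback inhibitors SPRY4 and ERRFI1 fell by 0.60 and 0.51. Wnt genes had 2 of 6 higher, DKK1 and NOTUM, which encodes an extracellular Wnt inhibitor (0.77 ± 0.08). CCND1, at 566.2 to 581.2 CPM and 664.9 to 695.9 CPM, lay just under the fold threshold (0.26 ± 0.06). Cytoskeletal targets of SRF and YAP had 3 of 19 higher, among them tissue factor F3 (0.82) and filamin FLNA, with 448.2 to 466.1 CPM and 700.3 to 788.6 CPM (0.70 ± 0.06), and 2 lower, with THBS1 at −0.68. The NF-kB list had 1 of 10 lower, NFKB1, at −0.52 and at −0.33 without Y396E replicate 3, and 3 of 10 were called lower without that library.

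Epithelial genes moved in both directions: 5 of 25 were higher and 9 lower. KRT7, KRT80, KRT8 and KRT19 were among the rises and KRT23 (−0.97), OCLN (−0.57) and the epithelial regulators GRHL2 and ESRP1 among the falls, the last 2 in the chromosome 8 stretch. Of 7 mesenchymal and matrix genes 3 were higher, with SNAI1, a repressor of epithelial genes, at 39.8 to 41.2 CPM in WT and 63.9, 62.0 and 82.2 CPM in Y396E (0.78 ± 0.08), LAMB3 at 0.54 and LOXL2 at 0.29. LOXL2 lost its call without any single WT library or without Y396E replicate 2, and KRT8 without Y396E replicate 3. Of 29 hypoxia and glycolysis genes 6 were higher and 5 lower. SLC2A1, the glucose transporter GLUT1, rose from 91.3 to 100.6 CPM to 166.8 to 201.6 CPM (0.93 ± 0.07), and ALDOC and PDK1 fell by 0.55 and 0.50 (PDK1 by 0.31 without replicate 3). Of 21 p53 targets 6 were lower and 0 higher. RRM2B, BBC3 and FAS were at −1.02, −0.79 and −0.73, RRM2B in the stretch, while CDKN1A at −0.16 was under the fold threshold. FAS had 16.6 and 19.6 CPM in Y396E replicates 1 and 2 and 6.79 CPM in replicate 3, and its change was −0.37 without it. Interferon and antigen presentation genes had 5 of 18 higher and 5 lower, IFI6 at 1.07 and PARP9 at −0.63 (−0.41 without replicate 3), and 6 higher and 2 lower without replicate 3.

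Of 14 known IGF2BP1 target RNAs 4 were called lower and 0 higher, and 2 were lower without Y396E replicate 3. Those lower with all 6 libraries include SIRT1 (−0.47), SRF (−0.33) and HMGA2 (−0.26). HMGA2 was not called without Y396E replicate 3 (−0.22) or without WT replicate 3. ACTB, a long known target, had 4212 to 4437 CPM in WT and 4614 to 4748 CPM in Y396E (0.12 ± 0.05, adjusted p = 0.0638). MYC, another, had a change of 0.12 (adjusted p = 0.0756). Of 30 stress granule protein genes 4 were lower, and 2 without replicate 3; YTHDF3 (−1.03) and PABPC1 (−0.71) lie in the chromosome 8 stretch, and CELF1 (−0.27) was not called without replicate 3 (−0.12). CELF1 also lost its call without any single WT library. Ribosomal protein genes had 2 of 76 higher and 4 lower. All 4 lower ones, RPS20 (−1.02), RPL7, RPL30 and RPL8, lie in the stretch. The higher ones were RPL41 and RPL17. RPL41, at 0.29, was not called without replicate 3 (0.24), which leaves 1 higher, and RPL17, at 0.57 and at 0.36 without replicate 3, is uncertain because a read-through gene overlaps it. Mitochondrial genome transcripts had 3 of 13 lower, MT-CO1, MT-CYB and MT-CO3, with MT-CO1 at 18757 to 22086 CPM in WT and 11760 to 15802 CPM in Y396E (−0.59 ± 0.13). MT-CO3 was not called without WT replicate 1 or 2 or without Y396E replicate 3, and 1 transcript was called higher without the last.

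**Figure D2:**
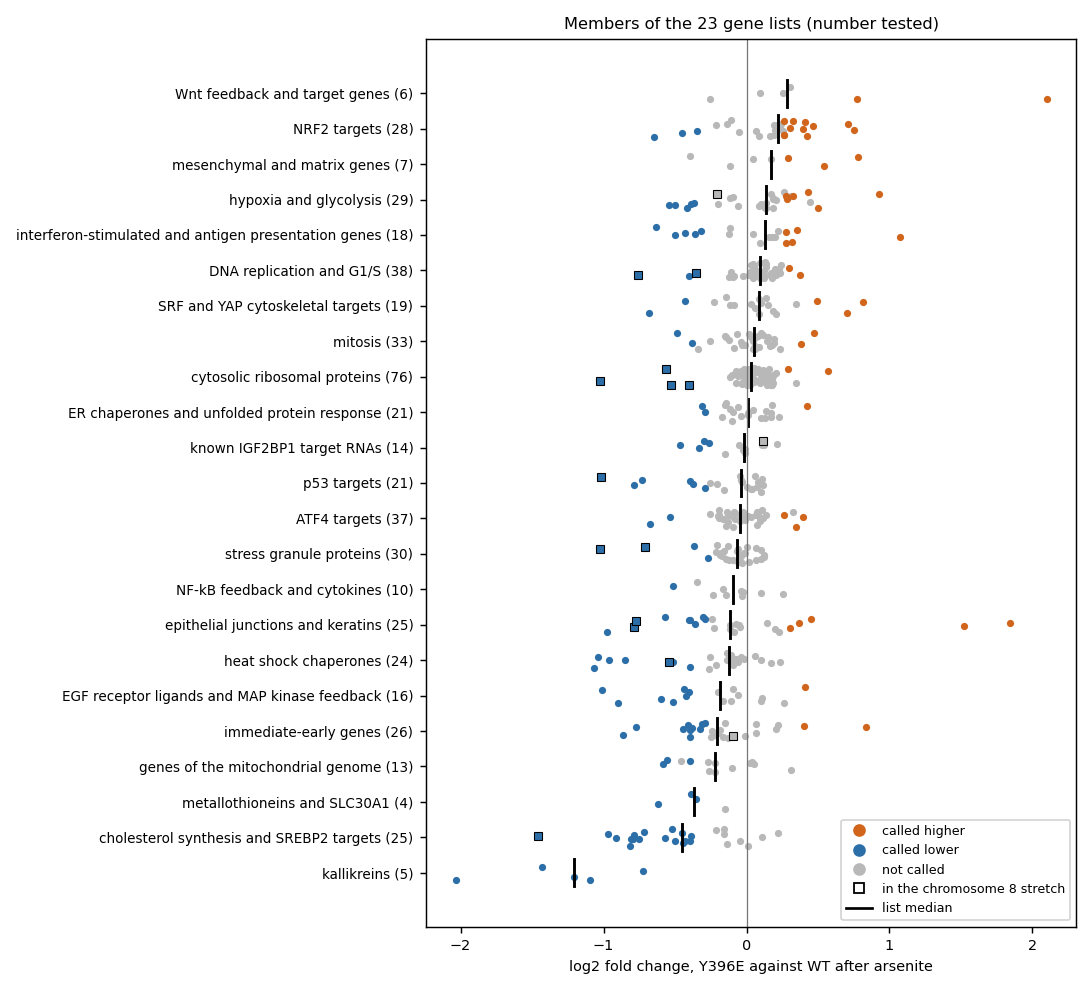
Log2 fold change of Y396E against WT after arsenite for each tested member of the 23 lists, 1 point per gene and a bar at the list median; colours mark calls and squares mark genes of the chromosome 8 stretch. The kallikrein and sterol lists lie to the left, with medians of −1.21 and −0.45, and the lower ribosomal protein genes are all squares.

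Chromosome 8 held a long run of lowered genes. The stretch, whose bounds came from earlier results of these data, runs from HGSNAT (start 43140464 in hg38) to C8orf33 (end 145066685), the last tested gene. Of its 207 tested genes 186 were lower and 1, TMEM65, higher (0.50 ± 0.10), with a median of −0.60, or a ratio of 0.659 on the linear scale. The median was −0.585, −0.554 and −0.599 in Y396E replicates 1, 2 and 3 against the WT mean. Without replicate 3 it was −0.58 with 193 genes lower, and in control cells −0.60 with 187 lower. The 115 tested genes of chromosome 8 before HGSNAT had a median of 0.06, with 16 higher and 9 lower. The fall was not particular to Y396E. Tested directly against S181E cells in arsenite, the 207 genes of the stretch had a median log2 difference of −0.015. That test called 0 of the 207, and also 0 of all 9099 tested genes.

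The fall was not even along the stretch. In windows of 25 Mb, chosen after the values were seen, the first held 33 genes, all lower and 19 of them over 2-fold, with a median of −1.03 (−1.01 without replicate 3, −0.89 in control). The next 3 windows had medians of −0.57, −0.60 and −0.54, and the last of them held 72 lower of 88. The first window's median was −0.97, −0.94 and −1.11 in the single Y396E libraries. CHD7, a chromatin remodeller (chromosome 8, 60678740 to 60868028), had 24.3, 22.1 and 23.4 CPM in WT and 9.25, 9.02 and 4.02 CPM in Y396E (−1.65 ± 0.18, adjusted p = 8.23e-08), and −1.33 without replicate 3. RB1CC1, an autophagy initiator, had 35.9 to 37.2 CPM in WT and 11.4, 11.9 and 13.3 CPM in Y396E (−1.58 ± 0.09). The cAMP phosphodiesterase PDE7A and the transcription factor CEBPD fell by 1.54 and 1.51, and by 1.19 and 1.28 without replicate 3. The 20 genes not called included MYC, EEF1D (0.01), MAL2 (0.05), KLF10 (−0.09), PTDSS1 (−0.22), PLEC (−0.23) and BOP1 (−0.25).

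**Figure D3:**
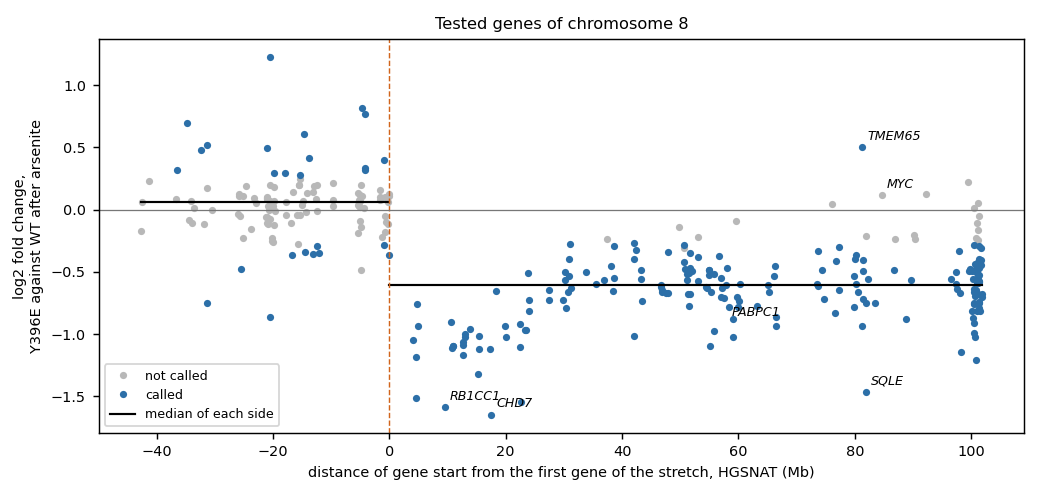
Log2 fold change of Y396E against WT after arsenite for tested genes of chromosome 8, by distance (Mb) of the gene start from HGSNAT, with lines at the median of each side. The median is 0.06 before the dashed line and −0.60 after it, and the place of the line came from earlier results of these data. Genes within 25 Mb past the line, a window chosen after the values were seen, have a median of −1.03.

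Control cells showed how much of this was present without stress. In control, 2606 genes (28.6%) were called between Y396E and WT, 1317 higher and 1289 lower. The control comparison shares no library with the arsenite comparison. Of the genes outside the stretch, 702 were called in both, 676 of them in the same direction. Over all tested genes the shared calls were 44.5% of the arsenite calls and 33.7% of the control calls. Across the 8892 genes outside the stretch, Pearson's r between the log2 fold changes was 0.50 (0.55 without replicate 3); this is across genes, which are not independent replicates. ZBED2, VSNL1, SYTL2, HTR7, MKX, SCD and NR2F1 differed by nearly as much in control as after arsenite, and none had a called difference between the treatments.

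The test of the difference, the Y396E effect after arsenite minus that in control, called 1954 genes (21.5%), 940 higher (10.3%) and 1014 lower (11.1%). Without Y396E arsenite replicate 3 it called 2176, 1262 higher and 914 lower, so the balance of directions depended on that library. Both with and without replicate 3, 1520 were called. Outside the stretch, 1083 genes were called after arsenite and not in control, and the difference was called in the same direction for 417 of them. For 229 of these (125 higher, 104 lower) both calls were also made without replicate 3. Conversely, 1715 genes were called in control only, and for 895 of them the effect was smaller after arsenite by this test. When libraries were scaled by their totals alone, the median difference over all genes moved from −0.02 to −0.12, and the calls became 409 higher and 1813 lower. Without WT control replicate 2, 1159 genes were called.

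ANGPTL4, a secreted inhibitor of lipoprotein lipase (chromosome 19, 8364155 to 8374370), had a difference of 1.74 (adjusted p = 8.18e-07). In control it had 15.1, 13.1 and 14.1 CPM in WT and 5.95, 6.05 and 4.61 CPM in Y396E. After arsenite it had 13.1, 9.43 and 11.5 CPM in WT and 13.4, 15.1 and 15.6 CPM in Y396E, so the Y396E libraries lay below WT in control (−1.36 ± 0.13) and above it after arsenite (0.38 ± 0.12, adjusted p = 0.0157). MERTK and TMEM51 were also lower in control, by 1.52 and 1.06, with differences of 1.39 and 1.40. After arsenite TMEM51 had 28.1, 27.3 and 46.9 CPM in Y396E, the last value from replicate 3. Its linear ratio to WT after arsenite was 1.26, and 1.03 without that library. In the opposite direction, DNAJB4 was higher in control by 0.31, at 14.4 to 15.0 CPM against 11.5 to 12.6 CPM, and lower after arsenite by 0.96 (difference −1.27, adjusted p = 2.85e-08). HSPA1B had 21.2 to 25.5 CPM in WT control and 24.3 to 27.5 CPM in Y396E control, and the difference was −1.18. The phosphatase CDC25C, MEPCE and ELF2 followed, at −1.0, −1.07 and −0.90. All 3 were lowest in Y396E arsenite replicate 3 among the arsenite libraries, and without it the differences were −0.75, −0.86 and −0.58.

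**Figure D4:**
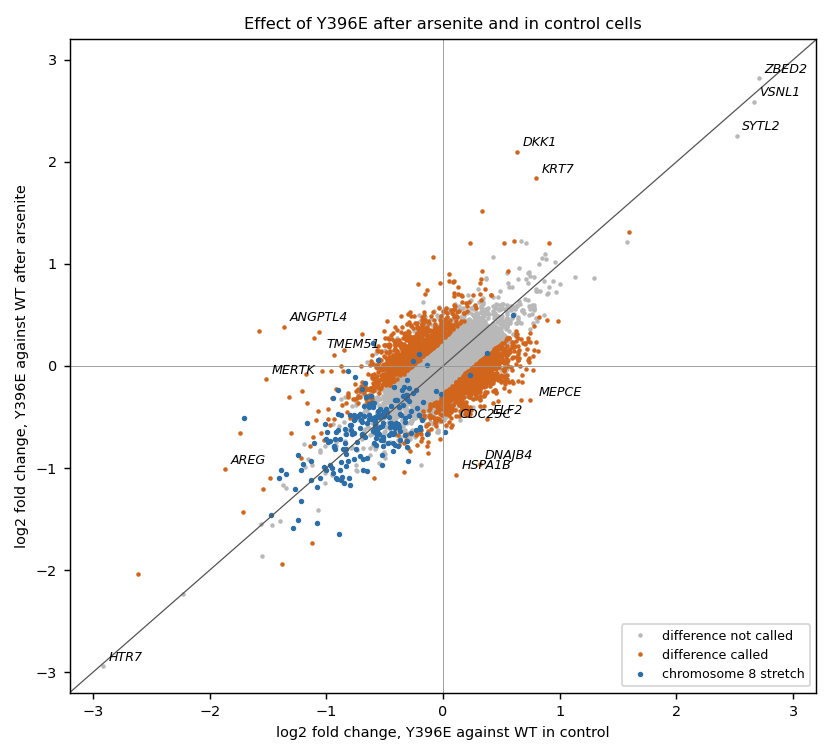
Log2 fold change of Y396E against WT in control (horizontal) and after arsenite (vertical), 1 point per tested gene, with the line of equal change; orange points have a called difference between the treatments and blue points lie in the chromosome 8 stretch. ZBED2, VSNL1 and HTR7 lie near the line, while ANGPTL4 and DKK1 lie above it and DNAJB4 and HSPA1B below it.

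Most mitosis and chaperone genes had a called difference between the treatments. Over all 9099 tested genes, 1317 were called higher and 1289 lower in control. The difference was called higher for 940 of the 9099 and lower for 1014. Of 33 mitosis genes, 29 were called higher in Y396E in control (median 0.54), against 2 higher and 2 lower after arsenite (median 0.05), and the difference was called lower for 25 of the 33. KIF11, a spindle motor, was at 0.77 in control and −0.04 after arsenite, and AURKA, a mitotic kinase, at 0.73 and 0.06; both were picked after their values were seen, as were the members named next. After arsenite CDK1 and CENPA were called higher (0.38 and 0.47), and the kinetochore genes CENPE and CENPF lower (−0.48 and −0.38). Of 38 DNA replication and G1/S genes, 30 were higher in control and 2 after arsenite, and the difference was lower for 18, with the helicase subunit MCM2 at 0.73 in control and 0.08 after arsenite. MCM4 and CCNE2, in the chromosome 8 stretch, were lower after arsenite by 0.76 and 0.35. Of the 24 chaperones 11 were higher and 3 lower in control (median 0.25), and the difference was lower for 16, which include HSP90AA1 (0.52 and −0.04) and HSPD1 (0.45 and −0.07). Of 30 stress granule protein genes the difference was lower for 15, with G3BP1, a granule nucleator, at 0.38 in control and −0.04 after arsenite and DDX3X at 0.52 and −0.22. These 4 lists kept a negative median difference under each of the 5 scalings tried, and when Y396E arsenite replicate 3 or WT control replicate 2 was left out. The DNA replication count was 7 without that WT control library.

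Some lists went the other way. All 5 kallikreins were lower by less after arsenite than in control (median difference 0.34), but 0 had a called difference without WT control replicate 2. Ribosomal protein genes had the difference called higher for 18 of 76, from a median of −0.16 in control to 0.03 after arsenite, but for 2 with scaling by library totals, 5 when WT control replicate 2 was left out and 38 when Y396E arsenite replicate 3 was. The mitochondrial transcripts were lower in control for 11 of 13 (median −0.65). The share of counts on the mitochondrial genome was 23.4%, 26.9% and 21.1% in WT control and 17.1%, 14.3% and 12.3% in Y396E control, and the part of this in the lists' differences was not tested. Cholesterol genes had a median difference of −0.01.

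Genes that respond to arsenite were chosen in the RQ cells, whose libraries enter neither side of these comparisons: those called with a fold above 2 between RQ arsenite and RQ control, outside the chromosome 8 stretch. Of all 8892 genes outside the stretch, 1315 were called higher and 1102 lower in control. The 1105 genes induced in RQ cells had a median of 0.20 in Y396E control against WT control, with 426 called higher and 47 lower. After arsenite their median was −0.05, with 71 higher and 142 lower. The difference had a median of −0.25 and was called lower for 404 and higher for 16 of them. The 429 genes lowered by arsenite in RQ cells showed the mirror image: −0.22 in control (21 higher, 171 lower), 0.04 after arsenite (71 higher, 52 lower), and a difference of 0.26, higher for 179 and lower for 1. The other 7358 genes had a median difference of 0.001. Without Y396E arsenite replicate 3 the median differences were −0.23 for the induced and 0.27 for the lowered genes, and leaving out WT control replicate 2 gave −0.20 and 0.21. In the paper's clustering of total RNA, RQ grouped with WT and S181E with Y396E. A choice made in RQ cells can therefore favour genes that respond more in WT than in Y396E. Its part in these medians was not tested.

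**Figure D5:**
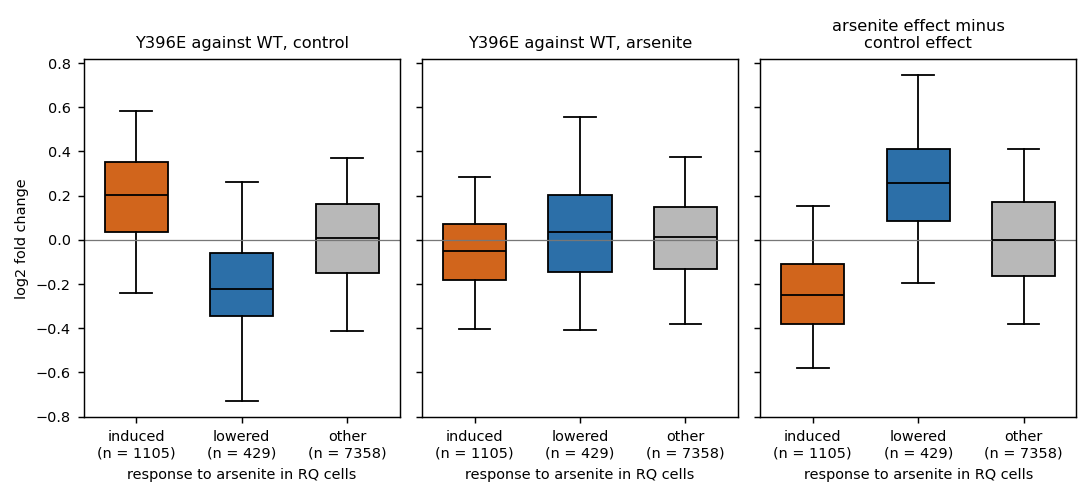
Log2 fold changes of Y396E against WT in control, after arsenite, and their difference, for genes induced, lowered or otherwise in RQ cells; boxes show quartiles with the median, whiskers the 5th to 95th percentile of genes. The median of the induced genes goes from 0.20 in control to −0.05 after arsenite, and that of the lowered genes from −0.22 to 0.04.

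S181E cells in arsenite were set beside Y396E as the other phosphomimetic. Both comparisons use the same WT libraries, so only values are given side by side. The log2 fold change of ZBED2 against WT was 2.81 in S181E and 2.82 in Y396E, and that of DKK1 was 2.00 and 2.10. SCD had −1.44 in S181E and −1.56 in Y396E. In the same order HSPA1B had −1.15 and −1.07, HSPH1 −0.90 and −1.04, and SREBF2 −0.94 and −0.97. Tested directly, 0 genes were called between Y396E and S181E after arsenite in edgeR, with 1375 at an unadjusted p under 0.05, and 10 were called by DESeq2. PDE4B and KRT7 came nearest among the leading genes. PDE4B had a log2 difference of −0.41, lower in Y396E (95% interval −0.56 to −0.25, adjusted p = 0.0893), and KRT7 was higher by 0.54 (0.31 to 0.77, adjusted p = 0.158). For DKK1 the interval was −0.07 to 0.28 and for HSPA1B −0.06 to 0.23. Leaving out Y396E replicate 2 gave 692 called genes, and leaving out replicate 3 gave 1, ADIRF (0.37 ± 0.06, adjusted p = 0.0245).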

How the data were processed

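Poly(A) RNA from clarified lysates was sequenced in 26 samples, of which the 24 with mCherry-IGF2BP1 were fitted, in 8 groups of 3 taken from the sample labels. The parental libraries and the RNA immunoprecipitation libraries were not analysed here, except IGF2BP1 and its paralogs in parental arsenite cells. The authors aligned reads to hg38 with STAR 2.7.11b and deposited whole-number counts per gene, not normalized, which per the file headers came from featureCounts 2.0.6 with strand setting 2 on GENCODE release 46. Symbols came from GENCODE release 44, to which 99.1% of identifiers matched.

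Protein-coding genes over 10 CPM in at least 12 of the 24 libraries were kept, following the study's methods. Counts were scaled with TMM factors and fitted in edgeR 4.0.16 (R 4.3.3) with 1 mean per group, leaving 16 residual degrees of freedom; glmQLFTest gave two-sided p-values with Benjamini-Hochberg adjustment over 9099 genes. SE is the size of a log2 fold change divided by the square root of F; its median was 0.076, and 0.109 for the difference between treatments. CPM values use TMM-scaled totals. The members and lists were chosen with earlier results of these data known.

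Genes named are the 12 largest rises and falls outside the chromosome 8 stretch that were called with and without Y396E arsenite replicate 3 and whose groups did not overlap, the 4 largest falls and up to 2 rises in the stretch by the same rule, the 5 largest differences between treatments in each direction, IGF2BP1 and its paralogs, and for each list up to 4 called members and the most abundant one; others were named after their values were seen, and some that the rule names are not reported here. Replicates of a group differed by more than counting noise in every pair. Alternatives were DESeq2 1.42.0, other scalings, filters and fold thresholds, a GC and length correction, all gene types, only the groups compared, a replicate block, and leaving out single libraries.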

Additional observations from a re-analysis of the deposited data

Results flagged for a closer look

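For 48 of the named genes the effect of Y396E after arsenite differed from its effect in control cells, by edgeR's quasi-likelihood test of the difference with Benjamini-Hochberg adjustment, with and without Y396E arsenite replicate 3. Values are log2 fold changes of Y396E against WT after arsenite minus those in control. The difference was positive for ANGPTL4 1.74, DKK1 1.47, TMEM51 1.4, MERTK 1.39, KRT80 1.19, IFI6 1.16, KRT7 1.05 and SECTM1 0.98. Smaller positive values were those of AREG 0.86, SNAI1 0.65, PDLIM2 0.61, KLK5 0.58, FLNA 0.58, SDF2L1 0.55, F3 0.5, LIF 0.48 and HLA-C 0.41, and then of EGR1 0.4, FTL 0.4, KLK10 0.39, RPS20 0.37, SLC2A1 0.37, KLK6 0.34, LAMB3 0.34, MT2A 0.3 and KLK7 0.28. It was negative for DNAJB4 −1.27, HSPA1B −1.18, MEPCE −1.07, CDC25C −1, ELF2 −0.9, CHD7 −0.76, DNAJB1 −0.73 and HSPH1 −0.7, for SIRT1 −0.7, CENPE −0.7, BBC3 −0.65, CYP24A1 −0.61, HSP90AB1 −0.59, PDE4B −0.56 and CENPF −0.52, and for CDC20 −0.45, SESN2 −0.44, PPM1D −0.4, PHGDH −0.39, YTHDF3 −0.38, BMP4 −0.28 and MCM7 −0.28. Of these, KLK5, KLK6, KLK7, KLK10, AREG, RPS20 and MT2A were called lower in Y396E in both treatments and by less after arsenite. Without WT control replicate 2, 0 of the 5 tested kallikreins had a called difference, and with scaling by library totals 1 did. PDE4B, CYP24A1, CHD7, YTHDF3 and HSPH1 were called lower in both treatments and by more after arsenite. Each group holds 3 libraries, too few for the test of single outlying samples.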

How the results depend on the processing

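Counts of called genes moved with the fold threshold and with how many groups shared the estimate of spread. Between Y396E and WT after arsenite 1972 genes were called at a fold of 1.2, 354 at 1.5, 70 at 2 and 3194 with no fold threshold; outside the chromosome 8 stretch the counts were 1785, 243, 44 and 3002, and in it 186, 111 and 26 were lower at 1.2, 1.5 and 2. The share of higher calls over all tested genes went from 45.1% to 30.5% and 28.6%. Outside the stretch, 20 of the 44 calls at 2 were higher and 24 lower. In control the counts were 2606, 417, 75 and 4019, and for the difference between treatments 1954, 224 and 21. With only the groups compared, 1122 genes were called, 958 outside the stretch, and 948 for the difference. Such fits have fewer residual degrees of freedom. They also take the spread from the compared groups alone, which include Y396E arsenite replicate 3. The part of either in the lower counts was not tested. Leaving out single libraries gave 1668 to 2616 calls after arsenite, 1159 to 2442 for the difference (lowest without WT control replicate 2) and 0 to 692 between Y396E and S181E (highest without Y396E arsenite replicate 2). That last comparison had 10 calls in DESeq2, where 3881 adjusted p-values were NA, 1 with library totals and 2 with the replicate block.

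The median of the stretch was −0.562 with the GC and length correction, −0.578 with library totals, −0.629 with genes over 1 CPM in 3 libraries, and −0.625 to −0.577 without single libraries. The median after arsenite of genes induced in RQ cells was −0.012 with the GC and length correction and −0.022 with library totals, and that of lowered genes was 0.057 and 0.056, with 0.008 under no filter and 0.018 over 1 CPM. The cause of these shifts was not tested. Added after the data were seen, leaving out Y396E arsenite replicate 3 with library totals gave −0.574 for the stretch, −0.354 and 0.166 for the median differences of induced and lowered genes, and 1 call against S181E. The same omission with the replicate block gave −0.568, 0.013 for the lowered genes after arsenite, and 1 call. Reversed signs were limited to uncalled values: ITGB1 (0.012) and RPS2 (−0.1) with the GC and length correction, LIF (−0.081 to 0.012) and RPS2 (−0.021 to 0.078) over the single arsenite libraries left out.

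Over the named genes, 94 of 116 called values kept their call in every alternative, and of 2553 comparisons 2448 kept side and direction, 77 lost and 24 gained a call, and 4 reversed. ELF2 lost its called difference with only the groups compared. Same-numbered Y396E and WT arsenite libraries correlated at 0.021, 0.104 and 0.03 in their deviations from group means. Each correlated best with its own number, among values of −0.055 to 0.104, so a weak pairing by number is possible. The main fit did not take the numbers as pairs. With a replicate block 1997 genes were called after arsenite, 2631 in control and 2065 for the difference. At the median SE of 0.076, changes under the fold threshold of 0.26 could also pass the adjusted p. The larger count without a fold threshold shows this. Some calls near the threshold, such as those of HMGA2 and LOXL2, were lost when single libraries were left out.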
